A study of Homo sapiens with 10 samples.

Results

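The enzymes that make serine from a glycolytic intermediate and pass its carbon to folate were examined in RPE-1 cells, an established line of telomerase-immortalized human retinal pigment epithelial cells, after 4 h with sulforaphane (SFN), an isothiocyanate from cruciferous vegetables, or with the vehicle DMSO. The 9 genes were PHGDH, PSAT1, PSPH, SHMT1, SHMT2, MTHFD1, MTHFD2, MTHFD1L and ALDH1L2. They were taken by gene symbol from the 28380 genes in the count table, and all 9 were found. The 5 SFN and 5 DMSO libraries came from the same line, and the labels list no genetic change or other agent in either group. The libraries were made from the 3′ ends of transcripts with Lexogen QuantSeq, according to the methods of the study. Nothing in the labels says that replicates came from separate cultures, so p-values measure only the spread between these libraries.

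Cells make serine in a side branch of glycolysis. PHGDH oxidizes 3-phosphoglycerate, PSAT1 adds an amino group taken from glutamate, and PSPH removes the phosphate. Serine hydroxymethyltransferase, SHMT2 in mitochondria and SHMT1 in the cytosol, then splits serine into glycine and a carbon unit held by tetrahydrofolate. In mitochondria MTHFD2 oxidizes that unit, and it leaves as formate through MTHFD1L or as carbon dioxide through ALDH1L2. In the cytosol a single protein, MTHFD1, interconverts these folates and takes formate up again for purine and thymidylate synthesis. Several of these genes are known targets of ATF4, the transcription factor of the amino acid and ER stress responses.

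The DMSO libraries held 15689294 to 20666692 counts and the SFN libraries 12375860 to 17308706, with medians of 16699666 and 14408929. Levels are given as CPM, counts scaled to a common library total after TMM correction, and they are shares of a library, so a change in the number of cells or in RNA per cell cannot be told apart from them. Of 10 retinal pigment epithelium markers, RPE65, RLBP1, TYRP1 and TTR had at most 4 counts in any library, LRAT had 3 to 12 and PMEL 7 to 29, and TYR was not among the rows. BEST1, MITF and OTX2 had at least 97 counts in every library, and their mean levels in DMSO and SFN were 18.8 and 42.4 CPM for BEST1 (edgeR adjusted p = 0.16), 50.8 and 23.4 CPM for MITF (5.3e-05) and 14.0 and 9.01 CPM for OTX2 (0.0029). The part of these differences in the results was not tested. The epithelial keratins KRT8 and KRT18 were detected in all libraries. The 3 endothelial and 5 leukocyte markers were absent from the rows or had at most 18 counts. DMSO replicate 1 stood apart from the other DMSO libraries. Relative to the mean of all libraries, its log2 CPM changed by -0.271 per doubling of transcript length, against 0.0872 to 0.148 in the other 4 DMSO libraries. In SFN replicates 1 to 5 this slope was -0.046, -0.183, -0.057, -0.035 and 0.109. Once DMSO replicate 1 is left out, all SFN libraries except replicate 5 lie below the DMSO range. Slope and treatment are then hard to tell apart. The log2 fold change of each gene for which this library stood apart is given with and without it.

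The upstream sequences of 4 members are shown first, because PSAT1 and MTHFD2 were the members with more than a 2-fold increase, and MTHFD1L and SHMT1 are folate enzymes that did not pass the test. Each runs 5′ to 3′ on the strand of the gene and ends at or shortly before the RefSeq start site (GRCh38.p14), with transcribed untranslated bases left out. They lie at chr9:78296875-78297124 and chr2:74198365-74198609 for the first pair, and at chr6:150866083-150866332 and, on the reverse strand, chr17:18363564-18363800 for the second. The MTHFD2 and MTHFD1L stretches lie inside the gene spans given below, which start farther upstream. Capitals mark CCAAT, the site of NF-Y, on either strand.
PSAT1: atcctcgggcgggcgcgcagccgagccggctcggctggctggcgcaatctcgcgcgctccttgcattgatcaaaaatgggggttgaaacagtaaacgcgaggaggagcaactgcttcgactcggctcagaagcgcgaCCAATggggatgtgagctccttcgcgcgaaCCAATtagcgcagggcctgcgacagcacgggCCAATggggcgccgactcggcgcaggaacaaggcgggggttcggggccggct
MTHFD2: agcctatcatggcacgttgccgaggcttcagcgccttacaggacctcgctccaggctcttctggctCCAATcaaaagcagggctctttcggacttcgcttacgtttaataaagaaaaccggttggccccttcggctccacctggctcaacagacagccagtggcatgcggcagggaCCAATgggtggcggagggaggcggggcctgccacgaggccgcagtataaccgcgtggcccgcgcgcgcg
MTHFD1L: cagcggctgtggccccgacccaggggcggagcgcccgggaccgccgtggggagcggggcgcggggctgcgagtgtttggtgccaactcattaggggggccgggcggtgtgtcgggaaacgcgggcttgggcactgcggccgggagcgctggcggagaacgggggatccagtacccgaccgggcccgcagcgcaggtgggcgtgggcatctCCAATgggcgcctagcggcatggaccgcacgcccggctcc
SHMT1: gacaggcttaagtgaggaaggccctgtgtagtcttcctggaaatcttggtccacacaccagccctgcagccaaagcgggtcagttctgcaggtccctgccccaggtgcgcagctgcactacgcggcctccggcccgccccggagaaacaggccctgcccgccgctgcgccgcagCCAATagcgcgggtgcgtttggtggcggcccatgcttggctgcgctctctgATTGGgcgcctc
The printed stretches held 3 CCAAT matches for PSAT1, 2 for MTHFD2, 1 for MTHFD1L and 2 for SHMT1. Of all 35116 upstream windows of 250 bases in the RefSeq table, 32% held at least 1. The windows of 300 bases around the PHGDH and MTHFD1 start sites held 1 and 2 CCAAT matches. Of all windows of 300 bases, 34.6% held at least 1. The composite C/EBP and ATF element to which ATF4 binds, searched as TGATGNAA on both strands, was found in none of the windows of 300 bases around the start sites of PHGDH, PSAT1, MTHFD2, SHMT1 and MTHFD1. It was found 1 time in MTHFD1L, just after the start site, at chr6:150866347-150866374 (capitals):
MTHFD1L site: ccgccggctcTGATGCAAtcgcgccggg
Over all windows of 300 bases, 3.62% held this element. The table had windows for 6 of the 9 members, without PSPH, SHMT2 and ALDH1L2. A match describes these letters only, and the lack of one says only that they are not in the window.

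All 3 enzymes of serine synthesis rose after SFN, with every SFN library above every DMSO library. Of the 9 members, 8 had enough counts for a test, and 5 of them rose and 0 fell at an adjusted p under 0.05 in edgeR's quasi-likelihood test, with p-values adjusted (Benjamini-Hochberg) over the 13378 genes tested. Of all genes tested, 9.07% rose and 13.9% fell by this rule. PSAT1 and MTHFD2 rose more than 2-fold, as did 2.94% of all genes tested. The SFN libraries all lay above the DMSO libraries for 4 members, and for 8.78% of all genes tested. The members counted by an unadjusted p under 0.05 were also 5 and 0, and DESeq2 and limma-voom gave 5 and 0 after adjustment.

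PSAT1, the aminotransferase of the pathway (chromosome 9, 78297125 to 78330093, forward strand), moved most. It had 53.2, 57.3, 49.4, 61.3 and 61.8 CPM in DMSO replicates 1 to 5, and 158, 165, 149.5, 154 and 136 CPM in SFN replicates 1 to 5. The lowest SFN library was thus well above the highest DMSO library. The mean rose from 56.6 ± 5.30 CPM (SD, n = 5) to 152 ± 10.9 CPM (SD, n = 5), a fitted 2.69-fold change (log2 fold change 1.43 with SE 0.10, edgeR adjusted p = 2.7e-06). Its log2 fold change exceeded those of 98.1% of the genes tested.

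PHGDH, the dehydrogenase at the entry to the pathway (chromosome 1, 119648411 to 119744218, forward strand), had 91.3, 89.8, 84.9, 84.3 and 75.1 CPM in the DMSO libraries and 145, 142, 141, 141 and 134 CPM in the SFN libraries, in replicate order. The SFN libraries were closely spaced and clear of the DMSO range. PHGDH rose from 85.1 ± 6.36 to 140.5 ± 3.90 CPM (SD, n = 5 each), or 1.65-fold (log2 fold change 0.72 with SE 0.09, edgeR adjusted p = 1.4e-04). PSPH, the phosphatase of the last step (chromosome 7, 56011051 to 56051604, reverse strand), had 22.8, 22.7, 24.3, 24.6 and 22.0 CPM in DMSO and 34.8, 32.6, 35.8, 35.3 and 28.0 CPM in SFN. SFN replicate 5 was the lowest SFN library for all 3 genes, and it still exceeded all DMSO libraries. PSPH rose from 23.3 ± 1.11 to 33.3 ± 3.22 CPM (SD, n = 5 each), or 1.43-fold (log2 fold change 0.52 with SE 0.10, edgeR adjusted p = 0.0035).

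**Figure D1:**
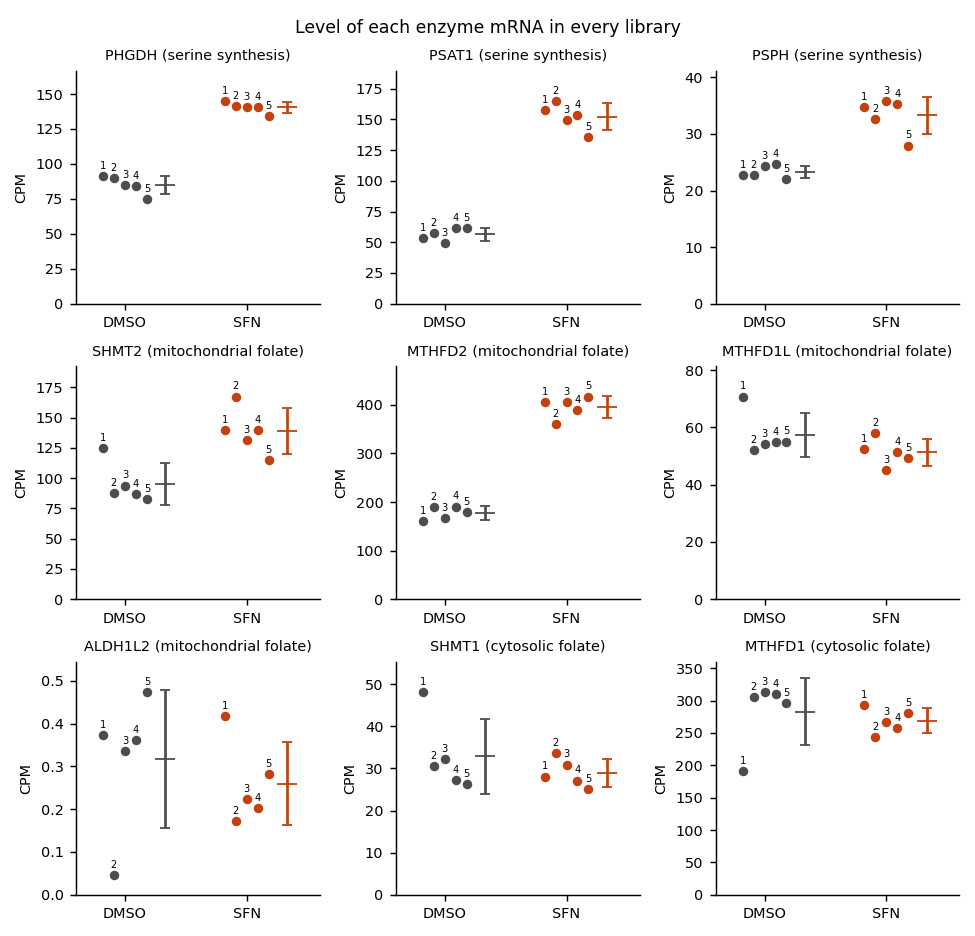
Level of each of the 9 enzyme mRNAs in CPM (vertical axes, from 0) in the 5 DMSO and 5 SFN libraries; points are libraries with their replicate number, and the bar beside them is the mean ± SD. PHGDH, PSAT1, PSPH and MTHFD2 do not overlap between the groups, and DMSO replicate 1 lies apart from the other DMSO libraries for SHMT2, MTHFD1L, SHMT1 and MTHFD1.

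The 3 steps did not rise equally. The log2 ratio of PSAT1 to PHGDH in the same library increased by 0.70, from -0.59 ± 0.22 in DMSO to 0.11 ± 0.07 in SFN (SD, n = 5 each, exact two-sided permutation p = 0.0079, adjusted 0.012 over 6 pairs of members). This is the smallest p that 5 against 5 libraries can give. PSAT1 relative to PSPH increased by 0.92 on the same scale (exact permutation p = 0.0079, adjusted 0.012). PHGDH relative to PSPH increased by 0.22 (exact permutation p = 0.040, adjusted 0.040), and with 1 library left out in turn it was past the threshold in only 4 of 10 cases. These 6 pairs, all those within serine synthesis and within the mitochondrial branch that could be tested, were chosen after the members' values were seen.

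In the mitochondrial branch of the folate cycle, 2 of 4 enzymes rose, 1 was not significantly changed and 1 was near the detection limit. MTHFD2, the mitochondrial methylenetetrahydrofolate dehydrogenase (chromosome 2, 74186172 to 74217565, forward strand), had 160.4, 190.2, 166, 190.5 and 179 CPM in DMSO replicates 1 to 5. In SFN replicates 1 to 5 it had 406, 360, 405, 389 and 417 CPM, all far above the DMSO libraries. It rose from 177 ± 13.7 to 395 ± 22.3 CPM (SD, n = 5 each), or 2.23-fold (log2 fold change 1.16 with SE 0.10, edgeR adjusted p = 8.9e-06). An exon of SLC4A5 on the opposite strand overlaps MTHFD2 by 1324 bases, and SLC4A5 had at most 2 counts in a library. Whether the counting used strand is not given in the sources used here. The low SLC4A5 count cannot show whether reads shared by both genes were dropped.

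SHMT2, which feeds serine carbon into mitochondrial folate (chromosome 12, 57229573 to 57234935, forward strand), had 125, 87.6, 93.9, 86.6 and 82.9 CPM in DMSO and 140, 167, 131, 139.6 and 115 CPM in SFN, in replicate order. The groups overlapped because DMSO replicate 1 was above SFN replicate 5. SHMT2 rose from 95.2 ± 17.2 to 139 ± 19.0 CPM (SD, n = 5 each), or 1.46-fold (log2 fold change 0.54 with SE 0.14, edgeR adjusted p = 0.016). Without DMSO replicate 1 the groups did not overlap, and the SHMT2 log2 fold change was 0.65 (SE 0.10, adjusted p = 1.4e-04 by edgeR).

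MTHFD1L, which releases formate in mitochondria (chromosome 6, 150865679 to 151101887, forward strand), had 70.7, 52.0, 54.1, 54.9 and 55.0 CPM in DMSO. In SFN it had 52.5, 58.1, 45.1, 51.4 and 49.3 CPM, within or just below the DMSO range. Its mean was 57.3 ± 7.58 CPM in DMSO and 51.2 ± 4.75 CPM in SFN (SD, n = 5 each), with a log2 fold change of -0.16 (95% interval -0.41 to 0.09, adjusted p = 0.36 by edgeR). Without DMSO replicate 1, the highest of the DMSO libraries, it was -0.08 (95% interval -0.26 to 0.10). The differences from MTHFD2 and SHMT2 were tested as ratios, in pairs chosen after the members' values were seen. Their p-values are therefore no independent support. The log2 ratio of MTHFD2 to MTHFD1L increased by 1.32 and that of SHMT2 to MTHFD1L by 0.71 (exact permutation p = 0.0079, adjusted 0.012, for each). MTHFD2 relative to SHMT2 increased by 0.61 on that scale (exact permutation p = 0.032, adjusted 0.038). The C/EBP and ATF element shown above was in the MTHFD1L window, and a relation of this element to the MTHFD1L level was not tested. PSPH, SHMT2 and ALDH1L2 had no window to search.

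ALDH1L2, the mitochondrial formyltetrahydrofolate dehydrogenase (chromosome 12, 105019784 to 105107643, reverse strand), had 6, 1, 6, 6 and 8 counts in the DMSO libraries and 7, 2, 3, 3 and 4 in the SFN libraries. These counts were below the filter, so ALDH1L2 was not among the genes tested. With no filter its log2 fold change was -0.25 (95% interval -1.55 to 1.05, adjusted p = 0.84 by edgeR), so that a 2-fold change in either direction lay within the interval and was not detectable at this depth. Its cytosolic counterpart ALDH1L1 was also below the filter, with 2 to 8 counts in any library, and their ratio was not tested. Exons of WASHC4 and C12orf45 on the opposite strand overlap ALDH1L2 by 131 and 145 bases. Those genes had 1027 to 2241 and 77 to 467 counts. Reads from the shared stretches cannot be told apart if strand was not used.

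Neither cytosolic enzyme passed the test. SHMT1 (chromosome 17, 18327860 to 18363563, reverse strand) had 48.1, 30.5, 32.3, 27.2 and 26.3 CPM in DMSO and 28.1, 33.6, 30.9, 27.1 and 25.1 CPM in SFN. Apart from DMSO replicate 1, the libraries of both groups covered nearly the same range. The SHMT1 log2 fold change was -0.18 (95% interval -0.55 to 0.19, adjusted p = 0.50 by edgeR), and without DMSO replicate 1 it was -0.01 (95% interval -0.24 to 0.21). MTHFD1, the trifunctional cytosolic enzyme (chromosome 14, 64388031 to 64463457, forward strand), had 191, 306, 313, 309 and 295 CPM in DMSO and 293, 244, 267, 258 and 281 CPM in SFN. All SFN libraries were below DMSO replicates 2 to 5 and above DMSO replicate 1. The MTHFD1 log2 fold change was -0.08 (95% interval -0.38 to 0.23, adjusted p = 0.76 by edgeR). Without DMSO replicate 1 it was -0.19 (95% interval -0.36 to -0.03) with no overlap between the groups, and the adjusted p was 0.055 by edgeR. Exons of SMCR8 and ZBTB25 on the opposite strand overlap SHMT1 and MTHFD1 by 197 and 178 bases, with 310 to 1256 and 47 to 224 counts, and reads from those stretches cannot be told apart if strand was not used.

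The balance between the compartments was compared within each library, which cancels the scaling of the libraries. The log2 ratio of SHMT2 to SHMT1 was 1.38, 1.52, 1.54, 1.67 and 1.65 in DMSO replicates 1 to 5 and 2.31, 2.31, 2.08, 2.36 and 2.19 in SFN replicates 1 to 5. It increased by 0.70, a 1.63-fold shift toward SHMT2, with no overlap (exact two-sided permutation p = 0.0079, adjusted 0.012 over 3 pairs). DMSO replicate 1, which had the most of each gene among the DMSO libraries, had the lowest ratio. For MTHFD2 to MTHFD1 the log2 ratio was -0.25, -0.68, -0.91, -0.70 and -0.72 in DMSO and 0.47, 0.56, 0.60, 0.60 and 0.57 in SFN, again with no overlap. It increased by 1.21, a 2.32-fold shift toward MTHFD2 (exact permutation p = 0.0079, adjusted 0.012). For MTHFD1L to MTHFD1 the log2 ratio was -2.29 ± 0.48 in DMSO and -2.39 ± 0.20 in SFN, a difference of -0.10 (exact permutation p = 0.83, adjusted 0.83), and without DMSO replicate 1 the difference was 0.11. The sign of these ratios depends on the reads each gene yields and is not a comparison of their levels.

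**Figure D2:**
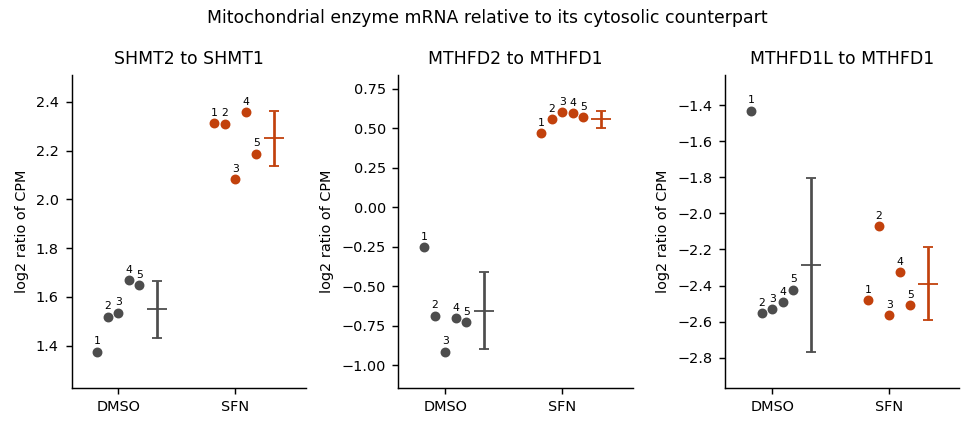
Log2 ratio of the CPM of a mitochondrial enzyme to that of its cytosolic counterpart in each library (vertical axes, which do not start at 0); points are libraries with their replicate number, and bars are the mean ± SD of 5 libraries. The SFN libraries lie above all DMSO libraries for SHMT2 to SHMT1 and for MTHFD2 to MTHFD1, and overlap them for MTHFD1L to MTHFD1.

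ATF4 itself had 432, 192, 220, 168 and 167 CPM in DMSO and 664, 812, 691, 677 and 495 CPM in SFN, in replicate order (log2 fold change 1.50 with SE 0.26, edgeR adjusted p = 0.0015). The ATF4 log2 fold change without DMSO replicate 1 was 1.83 (SE 0.13, adjusted p = 1.8e-07 by edgeR). DMSO replicate 1 had the highest ATF4 level of the DMSO libraries, and SFN replicate 5 the lowest of the SFN libraries. SFN replicate 5 was also lowest of the SFN libraries for PHGDH, PSAT1, PSPH, SHMT2 and SHMT1, but highest for MTHFD2. Among the DMSO libraries, replicate 1 was highest for PHGDH, SHMT2, SHMT1 and MTHFD1L, but lowest for MTHFD2 and MTHFD1. Whether these levels are related was not tested.

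The genes around these enzymes were taken from 8 hand-written lists of 63 genes, of which 62 were in the table and 53 could be tested. Of these 53, 10 rose and 4 fell, beside the 9.07% and 13.9% of all genes tested, and their median log2 fold change was 0.0044, against -0.028 for all genes tested. Without DMSO replicate 1, 18 of the listed genes rose and 9 fell. Over all 13566 genes tested in that fit, 3058 rose and 3193 fell, against 1214 and 1862 with all libraries. With all libraries, the 10 increases were in the lists for precursor supply, for serine transport and for use of serine outside the folate cycle. Of the 4 decreases, 3 were in the glycine cleavage, purine and methionine lists.

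All 3 glycolytic enzymes around 3-phosphoglycerate rose. The log2 fold change was 0.46 for PGK1 (SE 0.10, adjusted p = 0.0049 by edgeR), which makes 3-phosphoglycerate, 0.46 for GAPDH one step earlier (SE 0.13, adjusted p = 0.024) and 0.39 for PGAM1 (SE 0.10, adjusted p = 0.018), which draws it on toward pyruvate. GAPDH has many processed pseudogenes, so its count is uncertain. GAPDH was past the threshold in 13 of 20 alternatives, PGAM1 in 16 and PGK1 in all 20.

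Of 7 serine and glycine transporters tested, 1 rose. SLC1A4, a neutral amino acid exchanger that carries serine, rose from 12.4 ± 2.46 to 26.6 ± 1.39 CPM (SD, n = 5 each), with no overlap (log2 fold change 1.10 with SE 0.15, edgeR adjusted p = 2.5e-04). Its log2 fold change without DMSO replicate 1 was 0.98 (SE 0.09, adjusted p = 2.0e-06 by edgeR). SLC1A5, a related exchanger, had a log2 fold change of 0.11, and SFXN1, the mitochondrial serine carrier, 0.12 (SE 0.11 and 0.09). Neither passed the test (adjusted p = 0.53 and 0.42 by edgeR).

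Of 13 genes tested from the list for use of serine outside the folate cycle, 6 rose and 1 fell, with a median log2 fold change of 0.33. The list is broad: it holds CTH, which acts after the serine step, and SERINC genes, whose part in serine use is only proposed. CTH, which cleaves cystathionine to cysteine, rose most of all genes on the 8 lists. It had 11 to 28 counts in the DMSO libraries and 148 to 239 in the SFN libraries, or 1.07 ± 0.40 and 13.3 ± 1.83 CPM (SD, n = 5 each), a fitted 12.4-fold change (log2 fold change 3.63 with SE 0.23, edgeR adjusted p = 1.2e-06). SERINC3 and SERINC1, of a family of membrane proteins named for a proposed part in placing serine in membrane lipids, had log2 fold changes of 0.68 and 0.65 (SE 0.12 and 0.15, adjusted p = 0.0018 and 0.0084 by edgeR). Leaving out DMSO replicate 1 gave 0.60 for SERINC3 (SE 0.09). SPTLC1, a subunit of serine palmitoyltransferase, which starts sphingolipid synthesis, had 0.50 (SE 0.10, adjusted p = 0.0046). The other 3 calls of this list fell outside the rule for named genes and are given because they complete the count. CBS, which joins serine and homocysteine ahead of CTH, rose from 1.94 ± 0.80 to 4.09 ± 0.62 CPM (log2 fold change 1.06 with SE 0.29, edgeR adjusted p = 0.021) and was past the threshold in 17 of 20 alternatives. The CBS log2 fold change was 0.86 (SE 0.20) without DMSO replicate 1. SERINC2 had a log2 fold change of 0.65 (adjusted p = 0.025, past the threshold in 16 of 20 alternatives). SPTLC3, an alternative subunit of the palmitoyltransferase, fell by 0.53 on the log2 scale (adjusted p = 0.011). When DMSO replicate 1 was left out, SDSL and PTDSS1 also rose, with log2 fold changes of 0.65 and 0.20 (adjusted p = 0.034 and 0.030 by edgeR). SPTLC2 and the transporter SFXN2 then fell by 0.38 and 0.35 on the log2 scale (adjusted p = 0.012 and 0.047 by edgeR), and these 4 were named after their values were seen. For these 4 calls, length slope and treatment are hard to tell apart.

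None of the 12 genes tested for folate uptake, retention and other folate reactions passed the test by edgeR's quasi-likelihood method. At an unadjusted p under 0.05, 1 of them was higher and 2 were lower, and after adjustment DESeq2 called 1 increase and limma-voom 0. Thymidylate synthase TYMS had a log2 fold change of -0.02 (SE 0.18), and MTHFD2L, the paralog of MTHFD2, of 0.00 (95% interval -0.45 to 0.46, adjusted p = 0.99 by edgeR). Without DMSO replicate 1, GGH and MTHFS rose, with log2 fold changes of 0.45 and 0.57 (adjusted p = 0.0039 and 0.046 by edgeR). GGH removes glutamates from stored folate, and MTHFS returns formyl folate to the cycle. Both were named after their values were seen, in a fit where length slope and treatment are hard to tell apart.

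With all libraries, the glycine cleavage, purine and methionine lists had 1 call each, a decrease. MAT2A, which makes S-adenosylmethionine from methionine, fell by 0.73 on the log2 scale (SE 0.17, adjusted p = 0.0080 by edgeR), from 242 ± 52.0 to 146 ± 18.8 CPM (SD, n = 5 each). The groups overlapped because DMSO replicate 1 had 152 CPM, and without that library the MAT2A log2 fold change was -0.86. PPAT, the first enzyme of purine ring synthesis, fell by 0.52 on the log2 scale (SE 0.10, adjusted p = 0.0030 by edgeR), with every SFN library below every DMSO library. The glycine cleavage gene GLDC fell by 0.63 on the log2 scale (SE 0.20, adjusted p = 0.037 by edgeR), but it had at most 94 counts and was past the threshold in only 10 of 20 alternatives. Without DMSO replicate 1 these lists had further calls in both directions, named here after their values were seen. Length slope and treatment are hard to tell apart in that fit, and their parts in these calls were not tested. PFAS, of purine ring synthesis, fell by 0.79 on the log2 scale, and MTR and MTRR, methionine synthase and the reductase that reactivates it, by 0.66 and 0.45 (adjusted p = 1.1e-05, 5.3e-04 and 0.0046 by edgeR). In the same fit GCSH, of the glycine cleavage system, AHCY, which hydrolyses S-adenosylhomocysteine, and MAT2B, the regulatory partner of MAT2A, rose, with log2 fold changes of 0.60, 0.40 and 0.27 (adjusted p = 0.012, 0.017 and 0.023 by edgeR).

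**Figure D3:**
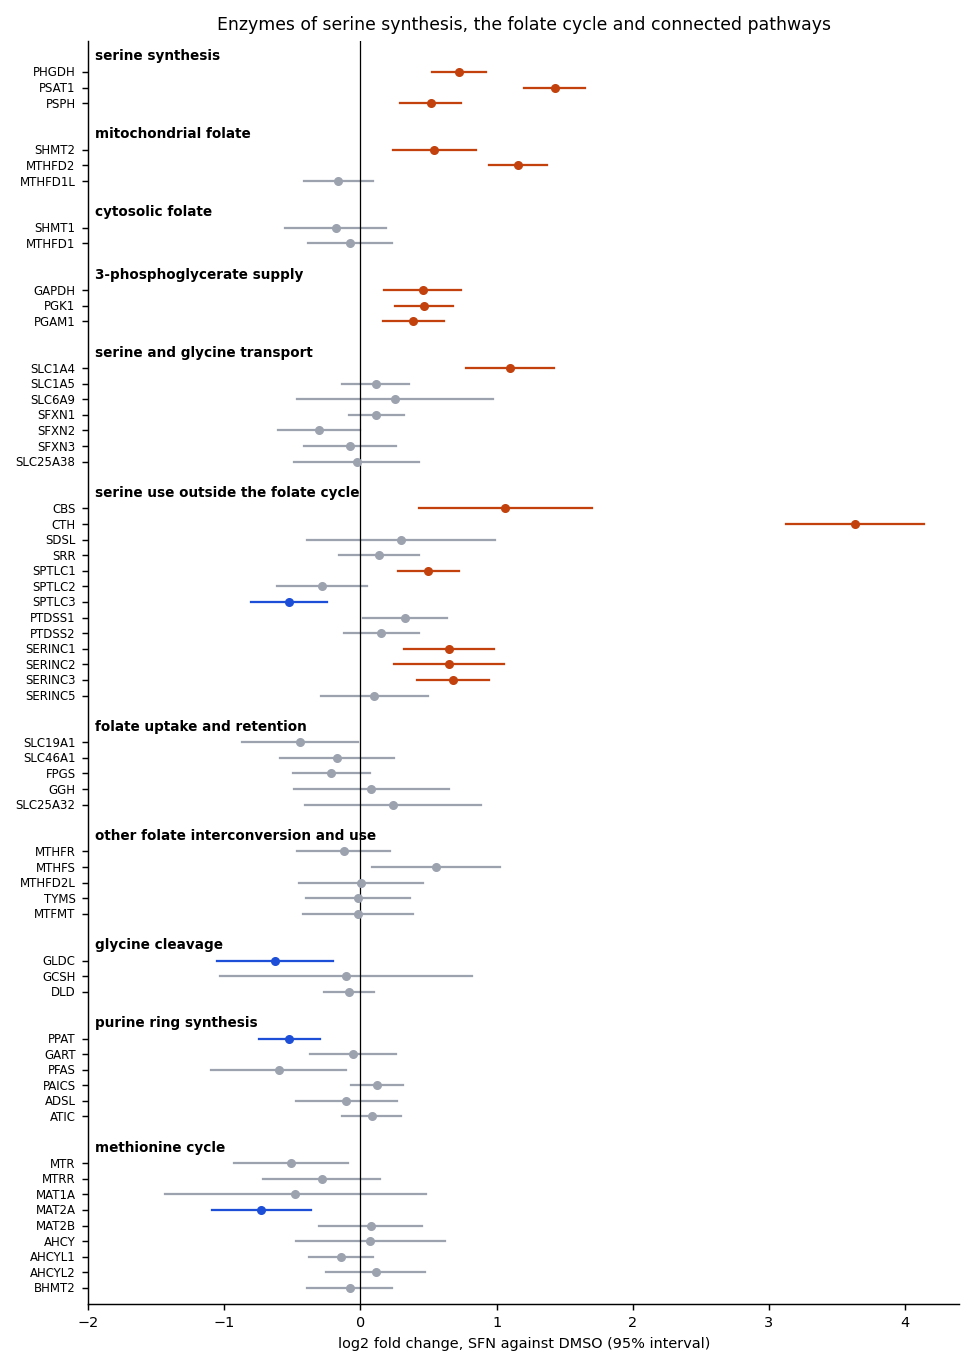
Log2 fold change of SFN against DMSO (horizontal axis) with its 95% interval for the 8 members and for connected genes, 1 gene a row, grouped by pathway. Red genes rose and blue genes fell at an adjusted p under 0.05, and grey genes did not pass; CTH lies farthest to the right at 3.63, and PSAT1, MTHFD2, SLC1A4 and CBS follow above 1.

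The 5 increased members kept their call in all 20 alternatives each, which included leaving out each of the 10 libraries, and no member lost or reversed a call when a library was left out. The PSAT1 log2 fold change lay between 1.34 and 1.47, that of MTHFD2 between 1.07 and 1.20, that of PHGDH between 0.64 and 0.74, that of SHMT2 between 0.43 and 0.65 and that of PSPH between 0.43 and 0.57. SHMT2 came closest to the threshold, at an adjusted p of 0.045 by edgeR without DMSO replicate 2. With the length slope of each library as a covariate, an alternative chosen after seeing the data, SHMT1 and MTHFD1L fell by 0.31 and 0.23 on the log2 scale (adjusted p = 0.0063 and 0.015 by edgeR).

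**Figure D4:**
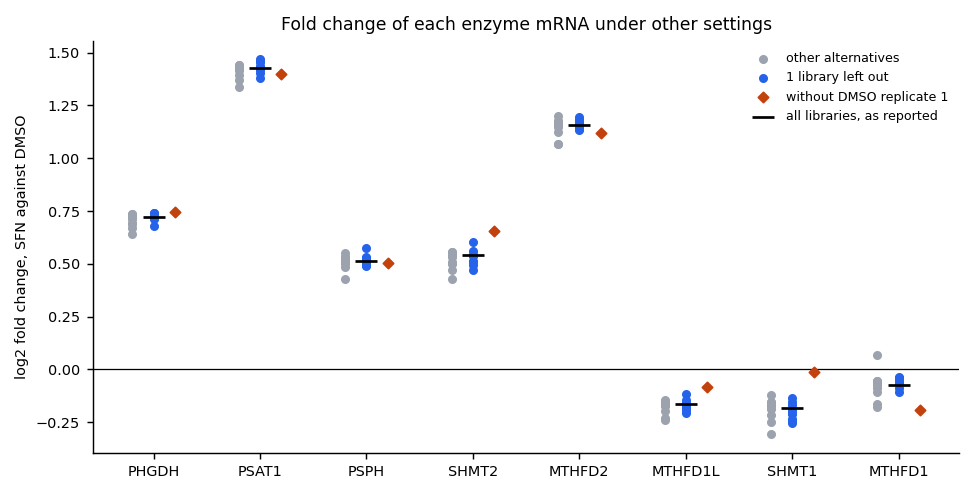
Log2 fold change of SFN against DMSO (vertical axis) for the 8 members tested, with all libraries (black bars), with 1 library left out (blue points, and red diamonds for DMSO replicate 1) and under the other alternatives (grey points). The 5 increased members stay above 0.4 throughout, while MTHFD1L, SHMT1 and MTHFD1 lie between -0.31 and 0.07.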

How the data were processed

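RNA from 5 SFN and 5 DMSO libraries was sequenced, and the authors deposited a table of raw gene counts, not normalized and with a column for each replicate. They aligned the reads with the Bluebee pipeline, per their methods, and the submitters' processing notes name FastQC, STAR, featureCounts, edgeR and hg38. The counting rules, the use of strand and of molecular identifiers and the Ensembl release are not given in the sources used here.

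Genes were filtered with filterByExpr, scaled by TMM and compared with glmQLFit and glmQLFTest in edgeR 4.0.16 (limma 3.58.1, DESeq2 1.42.0, R 4.3.3), with Benjamini-Hochberg adjustment over 13378 genes. SE was computed as |log2 fold change| / √F, and intervals are 95% intervals. Ratios of log2 CPM (prior count 2) were compared by exact permutation. Genes were named by rule as all members, called genes of each list (at most 4) and the 3 most similar profiles. The members and lists were chosen with earlier results of these data known. The methods were tested on simulated counts without a library that stood apart or a length slope, unlike these data. Same-group libraries differed beyond counting noise, with chi-square per degree of freedom from 3.50 to 243. Of the connected genes, 2 are counted but not reported here singly. Positions are from GENCODE 44 (GRCh38), in which 28145 of 28380 identifiers were found, and sequences from RefSeq (GRCh38.p14).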

Additional observations from a re-analysis of the deposited data

Results flagged for a closer look

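Over the members, ATF4, the called genes of the 8 lists and 3 library measures, 54 groups of 5 libraries were examined for a library that stood apart, and 11 had one, where about 2.7 are expected by chance. DMSO replicate 1 was that library in 10. The values in parentheses are the gap to the nearest library over the range of the group.

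DMSO replicate 1 was above the other DMSO libraries for SHMT2 (0.738), MTHFD1L (0.842), SHMT1 (0.726) and ATF4 (0.800). It was below them for MTHFD1 (0.856), where it had 191 CPM against 295 to 313, and for SLC1A4 (0.791), SERINC3 (0.748) and MAT2A (0.751). It also stood apart in its TMM factor (0.907) and its length slope (0.855). PHGDH, PSAT1, PSPH and MTHFD2 had no library that stood apart in either group. SFN replicate 2 had the lowest SERINC1 level of the SFN libraries (0.785), with 325 CPM against 405 to 427.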

How the results depend on the processing

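Of 160 values for the 8 tested members over 20 alternatives, 157 kept their direction and side of the threshold, including all 80 with 1 library left out. The count of increased members was 5 throughout, and that of decreased members was 0 but for the length covariate. With the length slope of each library as a covariate, chosen after seeing the data, 2 members were decreased, MTHFD1L (-0.23) and SHMT1 (-0.31), the MTHFD1 log2 fold change was 0.070, 3292 genes rose and 3431 fell over all genes, and 10 genes of the 8 lists fell. The cause was not tested. With library size only, 6 genes of the lists rose. With 1 library left out, 906 to 3058 genes rose and 1470 to 3193 fell, 8 to 18 genes of the lists rose and 3 to 9 fell, and the MTHFD1L to MTHFD1 difference lay between -0.18 and 0.11. The highest counts were those without DMSO replicate 1.

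Whether replicate numbers pair the samples is not known, since the methods of the study mention repeated measures without defining them. The correlation of same-numbered deviations lay between -0.27 and 0.48 and was over 0.1 for 1 of 5 pairs, which cannot exclude pairing. With the replicate block, 911 genes rose and 1530 fell, and the same number of members, 5 and 0, was called. GAPDH, PGAM1, CBS and GLDC were not past the threshold with it. Low counts kept ALDH1L2 out of the test.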

Other observations

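The genes whose log2 CPM, centred on the DMSO mean, differed least from those of a called member over the 10 libraries were listed among 10038 genes with a mean of at least 5 CPM. The measure is the root mean square difference on the log2 scale, given as a description. For MTHFD2 the nearest were GPT2, a mitochondrial alanine aminotransferase (0.0611), GRPEL2 (0.112) and SLC25A25, a mitochondrial carrier (0.113). For PSAT1 they were DNAJB1 (0.146) and AHSA1 (0.155), co-chaperones of the HSP70 and HSP90 systems, and ZNF227 (0.163). PHGDH was nearest to TIMM44 (0.0724), IP6K2 (0.0766) and HSPA8 (0.0895). SHMT2 was nearest to GPN1 (0.0737), CTDNEP1 (0.0801) and DNAJC7 (0.0806), and PSPH to CD164 (0.0823), PDIA6 (0.0862) and ST13 (0.0907). No called member was among the 3 nearest genes of another.

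Pseudogenes of the members took few reads. The 6 in the table, of MTHFD1, MTHFD2 and PSAT1, had at most 8 counts in a library.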
